A study of Mus musculus with 13 samples.

Results

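Livers of mice with bile duct ligation (BDL) that had received a control oligonucleotide (miR-Ctrl BDL, 4 mice) were compared with livers of mice without ligation (no BDL, 5 mice). These 9 mice were chosen by their column labels in the deposited table of this comparison, out of 13 mice in the whole series. Every gene of that table was considered, with no selection on its values. All mice were of the C57 strain (C57BL6 in the study's methods), were 3 months old and, per the methods, male. The miR-Ctrl BDL mice had the common bile duct ligated and received 60 µg of control oligonucleotide by tail vein on days 3 and 5 after surgery, carried by Invivofectamine 3.0, and their livers were taken on day 7. The no BDL mice are labelled as non treated, which names neither a sham operation nor an oligonucleotide or carrier. The effects of laparotomy, duct obstruction, oligonucleotide and carrier therefore cannot be told apart in this comparison. Nothing in the labels ties mice to litters or days. The p-values set the difference between groups against the spread between mice within a group, taking the 9 mice as independent. Total liver RNA was read with a polyA library kit that does not keep the strand (TruSeq RNA v2), and the authors deposited the number of reads on each Entrez gene.

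Ligation of the common bile duct stops the flow of bile to the gut, and bile acids build up in liver and blood. Hepatocytes take bile acids up from sinusoidal blood, synthesize them from cholesterol, and pump them across the canalicular membrane into bile, and the nuclear receptor FXR lowers synthesis and uptake when bile acids accumulate. In this widely used model of cholestasis, bile ducts proliferate, portal fibroblasts and stellate cells lay down matrix, and immune cells enter the liver.

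Between 12185333 and 19689037 reads were counted per mouse, with a median of 19016228 in no BDL and 13514212 in miR-Ctrl BDL. Values of single genes are CPM, each count as a share of the library total per 1e+06 counts, after scaling with edgeR's TMM factors (normalized CPM), and the letters log2 FC stand for the fitted log2 fold change of miR-Ctrl BDL over no BDL, given with its standard error. Of 23079 genes in the table, 13072 passed the filter on low counts and were tested. Within no BDL mice 1 to 4, Pearson's r of log2 CPM across genes ran from 0.974 to 0.984, and within miR-Ctrl BDL mice 1, 2 and 4 from 0.975 to 0.985. Across genes, which are not independent replicates, 1 mouse of each group stood apart from the others. No BDL mouse 5 correlated with the other no BDL mice at 0.961 to 0.965, and miR-Ctrl BDL mouse 3 with the other miR-Ctrl BDL mice at 0.919 to 0.932. The latter mouse was over 2 log2 units above all 3 others for 151 genes and below all 3 for 388. The former was above all 4 others by that margin for 107 genes and below them for 34. Both mice were kept in the values given, and values without one or the other are given beside many of them. The authors' separate table of the 2 ligated groups leaves out miR-Ctrl BDL mouse 3. Mouse numbers count animals within a group, and the labels name no pairing.

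**Figure D1:**
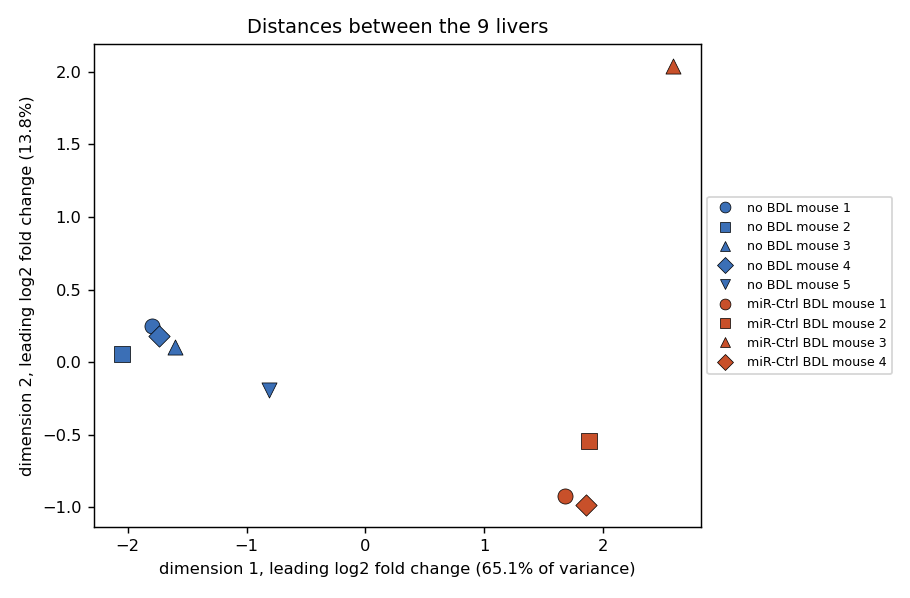
Multidimensional scaling of the 9 livers on log2 CPM, with each axis in log2 units and 1 point per mouse. The first axis (65.1% of the variance) separated the groups, no BDL mouse 5 lay at -0.81 against -2.05 to -1.60 for the other no BDL mice, and miR-Ctrl BDL mouse 3 lay at 2.04 on the second axis (13.8%).

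At an adjusted p of 0.05 in edgeR's quasi-likelihood test (p-values adjusted after Benjamini and Hochberg), 4666 genes or 35.7% of those tested were called. Ligated livers had 2491 genes (19.1%) above and 2175 (16.6%) below the controls. These 3 percentages are the background against which each gene list below is read. The lists were chosen with earlier results of these data known, so a share above this background describes a list and does not test it. A list called at about these shares does not stand out from all genes. A gene with few counts in controls passes the filter only if ligated livers have more of it. The share of tested genes that rose can therefore be inflated where many members are untested. Such lists include neutrophil genes (11 of 18 in the table tested), chemokines (18 of 26), cytokines (15 of 23) and genes of fetal liver (5 of 8). Among genes called, the median absolute log2 FC was 0.94, and 1553 rose and 640 fell by more than 1 log2 unit. More than 3 log2 units separated the groups for 212 genes that rose and 70 that fell. Leaving out both mice that stood apart gave 6064 calls, and 4423 of the 4666 genes were then called in the same direction. In a bulk liver sample, fewer cells of a type and less RNA per cell cannot be told apart, which applies to every gene below.

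The composition of the RNA differed between the groups. In no BDL, the 20 Mup genes, which encode major urinary proteins secreted by male mouse hepatocytes, took 14.4 to 31.7% of all counts, and in miR-Ctrl BDL 0.0536 to 1.17%. Because so large a share left the libraries, the scaling matters for every direction given here. With total counts in place of TMM, the median log2 FC of all genes tested moved from -0.01 to 0.79, and 9360 genes were called higher and 275 lower. With totals computed without the 20 genes with the most counts, the median was 0.34, with 5233 called higher and 735 lower. Directions below are relative to the median gene. The list medians kept their sign relative to it under both of these scalings. Rescaling moves nearly all genes alike, so this was close to fixed in advance. Before the shift of all genes was taken off, total counts gave medians above 0 for some lists described below as lower. Examples are nuclear receptors (0.15), fatty acid oxidation (0.13), periportal (0.25) and sinusoidal endothelial genes (0.25). Others stayed below 0, such as male-biased (-3.24) and cytochrome P450 genes (-0.51).

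**Figure D2:**
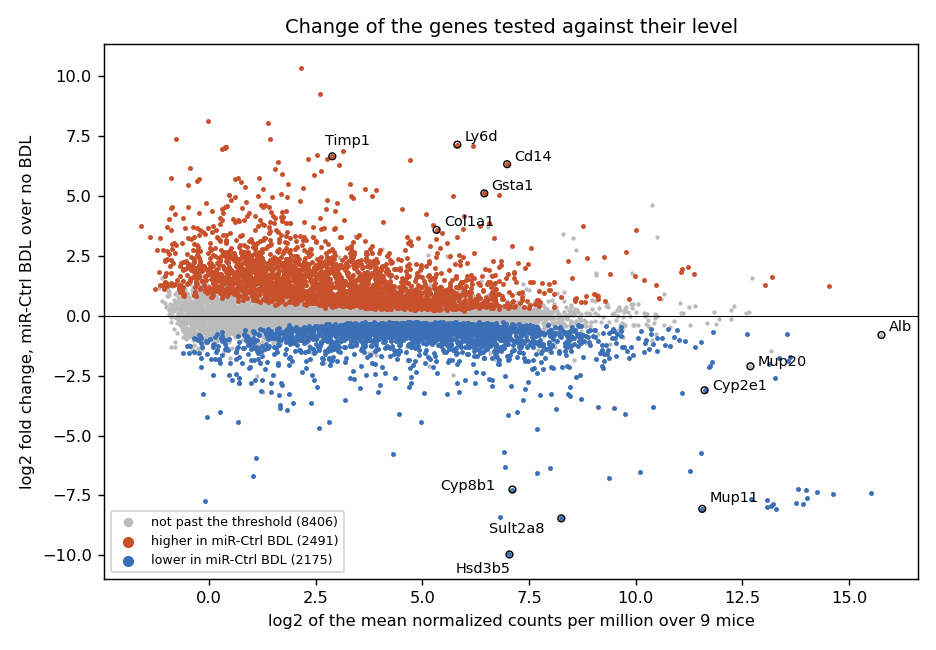
Log2 FC of each of the 13072 genes tested (vertical axis) against its mean log2 CPM (horizontal axis), 1 point per gene, with genes called higher and lower in miR-Ctrl BDL coloured. The Mup genes form a group at high abundance with log2 FC down to -8.06.

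Enzymes that make bile acids were lower. Of 16 genes of synthesis and conjugation tested, 0 rose and 11 fell, with a median log2 FC of -0.81 against -0.01 for all genes, and 1 rose without miR-Ctrl BDL mouse 1 or 2. Their summed level was 7383 to 9992 normalized CPM in no BDL and 3295 to 3842 in miR-Ctrl BDL. Cyp8b1 (Entrez 13124, GRCm38 chr9:121914356-121916305), the sterol 12α-hydroxylase that directs synthesis towards cholic acid, was at 347, 217, 218, 232 and 222 normalized CPM in no BDL mice 1 to 5 and at 2.14, 2.62, 0.479 and 1.1 in miR-Ctrl BDL mice 1 to 4. Its groups were separated by a wide gap, and its log2 FC was -7.26 ± 0.46 (edgeR quasi-likelihood test, adjusted p = 3.89e-05). Cyp7b1, the oxysterol hydroxylase of the alternative pathway, ranged from 97.3 to 383 in no BDL and from 18.3 to 36.3 in miR-Ctrl BDL (log2 FC -2.92 ± 0.41). Cyp7a1, the rate-limiting enzyme of the classical pathway, was at 48.4, 47.4, 54.3, 72 and 54.1 in no BDL and 40.6, 42.1, 0.410 and 38 in miR-Ctrl BDL, so the groups did not overlap, but 3 ligated mice lay just below the controls and mouse 3 was near 0. Cyp7a1 was not called (log2 FC -0.86 ± 0.73, edgeR adjusted p = 0.389), and without miR-Ctrl BDL mouse 3 it was called at a log2 FC of -0.47 (adjusted p = 0.0246).

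Transporters at the sinusoidal membrane moved in opposite directions by function. Of 7 uptake transporters, 6 fell and 0 rose (median log2 FC -1.80), whereas of 5 efflux transporters tested, 4 rose and 0 fell (median 1.41). The main sodium-dependent bile acid importer Slc10a1 (NTCP, GRCm38 chr12:80953185-80968705) was at 635, 535, 788, 749 and 352 normalized CPM in no BDL and 70.6, 75.1, 171 and 97.6 in miR-Ctrl BDL. The highest ligated mouse, mouse 3, had less than the lowest control (log2 FC -2.56 ± 0.34, edgeR adjusted p = 0.000573). Slco1b2, an organic anion transporter for unconjugated bile acids, fell from 780.2 ± 172 to 224 ± 42.2 (mean ± SD, n = 5 and 4). The anion transporter Slco1a1 showed the largest decrease of the family, with 239 to 529 in no BDL and 1.23 to 8.65 in miR-Ctrl BDL (log2 FC -6.57 ± 0.59), and its log2 FC was -7.33 without miR-Ctrl BDL mouse 1. Slco1a1 and Cyp7b1 also belong to the male-biased genes described below, which fell as a list.

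On the export side, Slc51b, the β subunit of the organic solute transporter OSTα-OSTβ that carries bile acids back into blood, was at 0, 0.0791, 0.351, 0.880 and 0.393 in no BDL and 6.0, 5.04, 8.89 and 9.59 in miR-Ctrl BDL. All ligated mice lay above all controls (log2 FC 4.37 ± 0.56, edgeR adjusted p = 0.000539). It was 5.08 without no BDL mouse 4, and 12.8% of the exon bases of Slc51b overlap a gene on the other strand. Abcc4 (MRP4), a basolateral pump, rose with a log2 FC of 0.88 ± 0.26 (edgeR adjusted p = 0.0246), a call that was lost without miR-Ctrl BDL mouse 2 (adjusted p = 0.0751) or mouse 4 (adjusted p = 0.0604). Abcc3 (MRP3) did not pass (log2 FC 0.60, edgeR adjusted p = 0.0541), with 93.8 to 236 in no BDL and 236 to 262 in miR-Ctrl BDL, and passed without no BDL mouse 3 (adjusted p = 0.0148) or mouse 5 (adjusted p = 0.0476). At the canalicular membrane, 3 of 11 pumps rose and 4 fell. Neither Abcb11 (BSEP), the bile salt export pump (log2 FC -0.53 ± 0.27, edgeR adjusted p = 0.146), nor Abcc2 (MRP2), the pump for conjugated bilirubin (log2 FC 0.17 ± 0.30, adjusted p = 0.704), was called, and for both the ranges of the groups overlapped. Abcg8, which forms with Abcg5 the sterol exporter to bile, fell with a log2 FC of -1.59 ± 0.28, with 46.2 to 150.2 in no BDL and 31.1 to 32.6 in miR-Ctrl BDL. The 3 that rose are multidrug resistance genes, namely Abcb1a and Abcb1b, drug export pumps, and Abcb4, the phospholipid floppase, with log2 FC of 1.23, 1.11 and 0.68. The call of Abcb4 was lost without any 1 mouse other than miR-Ctrl BDL mouse 4 (adjusted p of 0.0523 to 0.0984), and its log2 FC without miR-Ctrl BDL mouse 3 was 0.34. That of Abcb1b without the same mouse was 0.74.

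**Figure D3:**
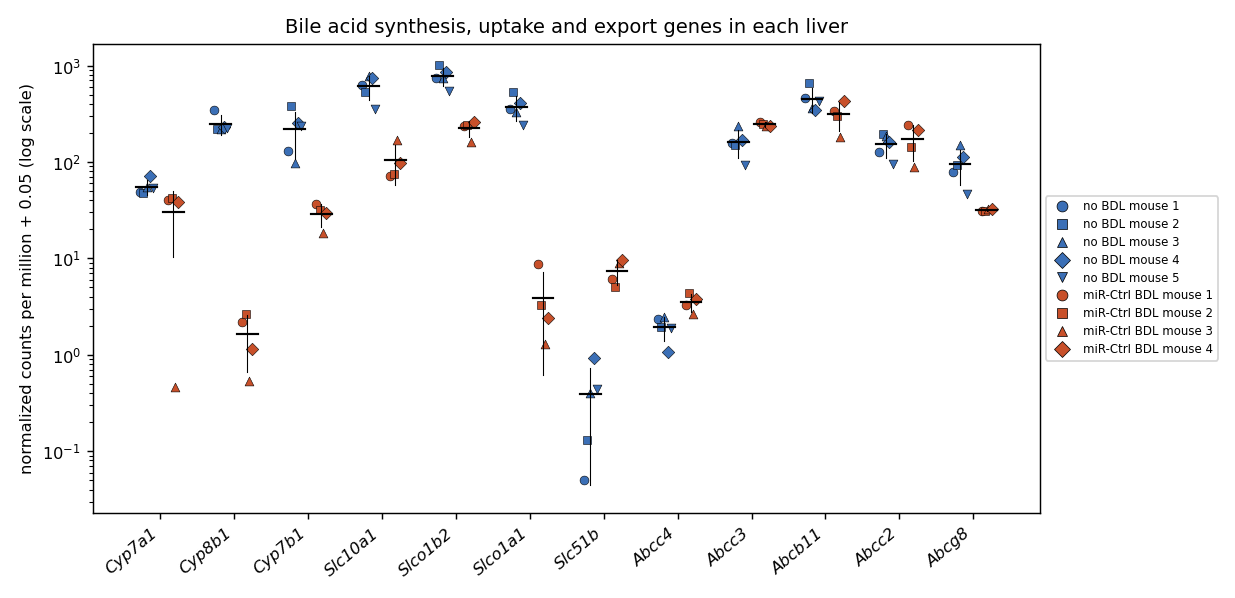
Normalized CPM of bile acid genes in each mouse on a log10 axis, with 0.05 added so that values of 0 can be drawn, 1 point per mouse, a bar at the group mean and a thin line for ± 1 SD. The 4 ligated mice lay below all 5 controls for Cyp8b1, Slc10a1 and Slco1b2 and above them for Slc51b.

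The receptors and factors that control these genes in hepatocytes were lower in part. Of 18 genes of nuclear receptors, hepatocyte transcription factors and the receptor pair for the intestinal hormone FGF15, 11 fell and 1 rose, with a median log2 FC of -0.68. Nr1h4, which encodes FXR, was at 83.4, 107, 109.6, 116 and 71.3 in no BDL and 50.8, 58.2, 47.5 and 42.4 in miR-Ctrl BDL. Its groups did not overlap (log2 FC -0.97 ± 0.17, edgeR adjusted p = 0.00196). Nr0b2 (SHP), a repressor that FXR induces, did not pass (log2 FC -0.72, edgeR adjusted p = 0.0819), and its adjusted p without no BDL mouse 5 was 0.0499. Of the further members, Onecut1 (HNF6), a hepatocyte and biliary transcription factor, fell most, from 1.9 to 8.15 to 0.705 to 0.915 (log2 FC -2.21 ± 0.44), where 54.4% of the sequence windows of Onecut1 also occur in other genes, so its reads may be shared. The one gene of the list that rose, Fgfr4, encodes the hepatocyte receptor for FGF15 (log2 FC 0.51, adjusted p = 0.056 without miR-Ctrl BDL mouse 2). Klb, its coreceptor, fell (log2 FC -1.27). Hnf4a, a main regulator of hepatocyte identity, was not called (log2 FC -0.24) and was called lower without miR-Ctrl BDL mouse 3 (log2 FC -0.41, edgeR adjusted p = 0.0435).

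Genes of drug and steroid metabolism fell broadly. Of 30 cytochrome P450 genes of families 1 to 3, 21 fell and 1 rose (median log2 FC -1.32), and of 16 glucuronosyltransferases and sulfotransferases, 10 fell and 0 rose (median -1.02). Cyp2e1, the ethanol-inducible P450 of pericentral hepatocytes, was at 5108, 5386, 6553, 5773 and 2988 in no BDL and 423, 781, 589 and 604 in miR-Ctrl BDL. Each ligated mouse had well under the lowest control, mouse 5 (log2 FC -3.11 ± 0.30, edgeR adjusted p = 0.00013). Cyp2c29 fell with a log2 FC of -3.80 ± 0.72, with 90.4, 52.1, 4.51 and 121 in miR-Ctrl BDL, where mouse 3 was lowest, against 828 to 1056 in no BDL. Cyp1a2, which metabolizes caffeine and aromatic amines, was spread from 4.99 to 297 across ligated mice and was not called (edgeR adjusted p = 0.102), but was called without miR-Ctrl BDL mouse 3 (log2 FC -1.46, adjusted p = 0.0165). Ugt2b1, a glucuronosyltransferase, fell from 389 to 678 to 7.04 to 53 (log2 FC -3.91 ± 0.56). Ugt1a1, which conjugates bilirubin, was not called (log2 FC -0.71, edgeR adjusted p = 0.139) and was called lower without miR-Ctrl BDL mouse 3 (log2 FC -1.14, adjusted p = 0.0112), and 58.2% of its windows are shared with other genes, since the Ugt1a genes share their last exons. Sult2a8, a bile acid sulfotransferase of mouse liver, went from 343 to 785 in no BDL to 0.799 to 3.28 in miR-Ctrl BDL (log2 FC -8.46 ± 0.52), and its log2 FC was -9.07 without miR-Ctrl BDL mouse 3.

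Antioxidant and glutathione genes regulated by NRF2, the sensor of electrophiles, showed the opposite. Of 16 tested, 13 rose and 0 fell (median log2 FC 1.93). Nqo1, a quinone reductase, was at 3.94, 3.16, 6.74, 3.45 and 4.39 in no BDL and 32.1, 14.2, 14 and 22 in miR-Ctrl BDL, without overlap (log2 FC 2.24 ± 0.30, edgeR adjusted p = 0.00062). Hmox1, which breaks down haem, was at 9.56, 9.88, 12.4, 7.72 and 27.4 in no BDL and 38, 75.1, 118 and 63.2 in miR-Ctrl BDL (log2 FC 2.46 ± 0.42). No BDL mouse 5 had more Hmox1 than the other controls but less than every ligated mouse. Gsta1, a glutathione transferase, rose from 3.93 to 7.3 to 363, 112, 8.62 and 276 in the 4 ligated mice (log2 FC 5.11 ± 0.83). Mouse 3 was barely above the controls for it, and as 89.7% of the windows of Gsta1 are shared with other genes, above all its paralogs, the value is uncertain for the single gene. The summed level of the list was 1799 to 2303 in no BDL and 1812 to 13491 in miR-Ctrl BDL, with 1812 in mouse 3.

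Genes that are higher in male than in female mouse liver made up most of the largest decreases. Of 27 male-biased genes, among them Slco1a1 and Cyp7b1 given above, 21 fell and 0 rose, with a median log2 FC of -4.03. Summed over the 20 Mup genes, the level was 401660, 465172, 149048, 356358 and 321487 normalized CPM in no BDL mice 1 to 5 and 5208, 7928, 447 and 3278 in miR-Ctrl BDL mice 1 to 4, an 80.4-fold difference of means. Of the 20 genes, 18 fell and 0 rose, with log2 FC between -8.06 and -2.07. Reads can be split between Mup paralogs (50.5% of the windows of Mup20, 89.0% of those of Mup11 and 100% of those of Mup2 also occur in other genes), so the sum is more certain than any single member. Mup20 (darcin, a pheromone that marks males) was not called (log2 FC -2.11 ± 0.81, edgeR adjusted p = 0.067), with 3143, 5079, 126 and 952 in the ligated mice against 5498 to 12061, and was called without miR-Ctrl BDL mouse 2 (log2 FC -2.83) or mouse 3 (log2 FC -1.72). Hsd3b5 (Entrez 15496), a male-specific steroid dehydrogenase, was at 172, 423, 175, 251 and 162 in no BDL and 0.203, 0.151, 0.205 and 0.350 in miR-Ctrl BDL. The gap between the groups was the widest among genes that fell (log2 FC -9.97 ± 0.48, edgeR adjusted p = 1.27e-05), and 21.2% of its windows are shared with other genes. Of 5 female-biased genes tested, 0 were called higher and 1 lower, beside 19.1% and 16.6% of all genes, and their median log2 FC of 0.15 was -1.04 without miR-Ctrl BDL mouse 3. The hallmark female genes Cyp2b9 and Cyp2b13 stayed under the filter, with at most 4 and 1 counts in a ligated mouse. Controls had 0 to 41 counts of Cyp2b9 and 1 to 9 of Cyp2b13, with the most of both in no BDL mouse 3. The prolactin receptor Prlr fell from 33 to 87.5 to 21.1 to 30.1 (log2 FC -1.24 ± 0.25).

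Genes of both ends of the liver lobule, the one around the central vein and the one at the portal tract, fell. Of 18 pericentral genes, 14 fell and 0 rose (median log2 FC -1.37). Of 16 periportal genes, 7 fell and 3 rose (median -0.51, or -0.77 without miR-Ctrl BDL mouse 3). The difference between these lists was not tested. Glul, the glutamine synthetase of the hepatocytes next to the central vein, was at 972, 961, 804, 974 and 785 in no BDL and 156, 218, 183 and 276 in miR-Ctrl BDL (log2 FC -2.11 ± 0.19, edgeR adjusted p = 0.000121). The groups were far apart, and 14.2% of the windows of Glul are shared with other genes. Axin2, a target of Wnt signalling there, was not called (log2 FC -0.68, edgeR adjusted p = 0.066) and was called lower without miR-Ctrl BDL mouse 1 (log2 FC -0.93). Among periportal genes, Hal, the histidase, fell with a log2 FC of -1.90 ± 0.26, with 57.4 to 84.2 in miR-Ctrl BDL against 179 to 402. Cyp2f2, the periportal P450, fell with a log2 FC of -1.66 ± 0.47, with 435, 335, 72.6 and 518 in the ligated mice, of which mouse 3 was lowest. Its adjusted p was 0.0522 without miR-Ctrl BDL mouse 2, and 13.5% of the exon bases of Cyp2f2 overlap a gene on the other strand. The 3 periportal genes that rose were Hsd17b13, a lipid droplet protein (log2 FC 0.61), Cdh1, E-cadherin, which bile duct cells also make (1.03, a call lost without any 1 of no BDL mice 1 and 3 or miR-Ctrl BDL mice 1, 2 and 4, with adjusted p of 0.0514 to 0.0665), and Ctsc, a lysosomal protease abundant in immune cells (1.21).

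Nitrogen and methionine metabolism were lower in part. Of 22 genes of the urea cycle and amino acid catabolism, 15 fell and 0 rose (median log2 FC -0.88). Several of these genes, such as Cps1 and Hal, are also counted in the periportal list above. Cps1, the first enzyme of the urea cycle, was at 1506, 2383, 2092, 1810.5 and 1442 in no BDL and 1084, 978, 612 and 1167 in miR-Ctrl BDL (log2 FC -0.94 ± 0.24, edgeR adjusted p = 0.0126), without overlap. Its counts differ between the deposited tables, as given with the closing observations. Otc, the next enzyme of the cycle, fell to 174, 148, 23.3 and 162 from 272 to 471 (log2 FC -1.52 ± 0.47, edgeR adjusted p = 0.03), and its adjusted p rose to 0.0513 to 0.0636 without no BDL mouse 1, 2, 3 or 4 or miR-Ctrl BDL mouse 2. Of 18 genes of the methionine cycle and 1-carbon metabolism, 6 fell and 1 rose (median -0.23), and 3 fell without miR-Ctrl BDL mouse 2. Without miR-Ctrl BDL mouse 3, 9 fell and the median was -0.39, and none rose without any 1 of the other mice but no BDL mouse 5. Sardh, the sarcosine dehydrogenase, fell most (log2 FC -1.56 ± 0.18), while Bhmt, which remethylates homocysteine with betaine, was not called (log2 FC -0.29 ± 0.28, edgeR adjusted p = 0.456) and shares 11.8% of its windows with other genes.

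Mat1a, the methionine adenosyltransferase that makes S-adenosylmethionine in hepatocytes, depended on 1 mouse. Its levels were 2273, 1914, 2608, 2099.6 and 1684 in no BDL and 511, 1323, 6366 and 1005 in miR-Ctrl BDL, where mice 1, 2 and 4 lay below every control and mouse 3 above all of them. It was not called over all mice (log2 FC 0.12 ± 0.62, edgeR adjusted p = 0.898), and without miR-Ctrl BDL mouse 3 it was called lower (log2 FC -1.17, adjusted p = 0.0107).

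Lipid and glucose genes also differed with miR-Ctrl BDL mouse 3. Of 23 genes of fatty acid oxidation, 11 fell and 1 rose (median log2 FC -0.66). Without that mouse, 20 fell, with a median of -1.14. The median of the list in each mouse, relative to no BDL mice 1 to 4, was 0.08, -0.09, 0.02, -0.04 and -0.54 in no BDL and -1.25, -1.21, -0.09 and -1.16 in miR-Ctrl BDL, so mouse 3 was at the level of the controls. The rate-limiting importer of fatty acids into mitochondria, Cpt1a, was at 131, 135, 415 and 142 in the ligated mice against 203 to 396 and was not called (edgeR adjusted p = 0.308). Without miR-Ctrl BDL mouse 3, the highest of its group, Cpt1a was called lower (log2 FC -1.14, edgeR adjusted p = 0.00389). Fabp1, the cytosolic fatty acid carrier of hepatocytes, fell in every ligated mouse, to 203 to 509 from 1938 to 4747 (log2 FC -3.23 ± 0.37, edgeR adjusted p = 0.000291). The gene of the list that rose was Pdk4, a kinase that restrains glucose oxidation (log2 FC 2.95). It was not called without miR-Ctrl BDL mouse 3 (log2 FC 1.12, edgeR adjusted p = 0.0982) or without no BDL mouse 3 or 4 (adjusted p of 0.0597 to 0.0614), and DESeq2 gave no adjusted p for it.

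Of 16 genes of fatty acid synthesis, 9 fell and 0 rose (median log2 FC -1.23), and 3 to 4 fell without no BDL mouse 1, no BDL mouse 4 or miR-Ctrl BDL mouse 2. Neither Fasn, the fatty acid synthase (793, 293, 116 and 1030.2 in miR-Ctrl BDL against 568 to 1721), nor Scd1, the desaturase (7834, 1445, 33.2 and 9355 against 6671 to 22799), was called, with edgeR adjusted p of 0.266 and 0.309. Both spanned a wide range within each group, and mouse 3 was lowest. Thrsp, a lipogenic nuclear protein, fell with a log2 FC of -3.47 ± 0.80, or -4.20 without miR-Ctrl BDL mouse 4. Cholesterol synthesis was called in few genes, 2 higher and 2 lower of 22, and with 1 mouse left out the count called higher was 0 to 2 and the count called lower 1 to 4. Sqle, the squalene epoxidase, had a log2 FC of 0.03 ± 0.25. Stard4, a sterol carrier, fell (log2 FC -1.48 ± 0.26).

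Of 11 hepatic genes of glucose metabolism, 7 fell and 0 rose (median log2 FC -1.09). G6pc, the glucose-6-phosphatase that releases glucose to blood, was at 777, 217, 532, 997 and 298 in no BDL and 72.1, 92.2, 33.4 and 34.7 in miR-Ctrl BDL (log2 FC -3.28 ± 0.54, edgeR adjusted p = 0.00158). Pck1, the gluconeogenic carboxykinase, was not called with all mice (log2 FC -0.41, edgeR adjusted p = 0.483) and was called lower without miR-Ctrl BDL mouse 3 (log2 FC -0.98, adjusted p = 0.0355), whose level of 2077 was above all controls. Pklr, the liver form of pyruvate kinase, fell (log2 FC -2.09 ± 0.50), and 22.0% of its exon bases overlap a gene on the other strand. Of 15 glycolysis genes that most cells express, 8 rose and 0 fell (median 0.82). Relative to no BDL mice 1 to 4, the median of the list was 0.48, 0.48, 1.18 and 0.53 in the 4 ligated mice, highest in mouse 3, and without that mouse the median log2 FC was 0.32. The summed level was 5237 normalized CPM in mouse 3, 2440 to 3168 in the other ligated mice and 2832 to 3457 in no BDL, so without mouse 3 the ranges of the sums overlapped. Pkm, the pyruvate kinase of non-hepatic and fetal cells, was at 12.3, 9.96, 11.9, 9.55 and 21.8 in no BDL and 46.5, 77.7, 66.7 and 66.3 in miR-Ctrl BDL (log2 FC 2.29 ± 0.25, edgeR adjusted p = 0.000258). No BDL mouse 5 was the highest control, and 34.4% of the windows of Pkm are shared with other genes. Hk2, a hexokinase that hepatocytes have little of, rose to 3.15 to 6.9 from 0.562 to 2.29 (log2 FC 2.27 ± 0.41).

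Secreted liver proteins split. Among 22 coagulation and fibrinolysis genes, 5 rose and 9 fell (median log2 FC -0.36), beside 19.1% and 16.6% of all genes tested. Those that fell are clotting factors and inhibitors made by hepatocytes, such as F2, prothrombin, at 1543 ± 40.4 in no BDL and 1042 ± 25.2 in miR-Ctrl BDL (mean ± SD, n = 5 and 4, log2 FC -0.57 ± 0.13, edgeR adjusted p = 0.00697). F11 fell with a log2 FC of -1.02 ± 0.20. Those that rose included 2 plasminogen activators, Plat (log2 FC 4.56) and Plau (log2 FC 1.83), the receptor Plaur (log2 FC 4.14), and Pros1, protein S. Of 16 complement genes, 2 rose and 3 fell, near the shares of 19.1% and 16.6% over all genes tested. Without miR-Ctrl BDL mouse 3, 1 rose and 5 fell, and 1 rose as well without any 1 of no BDL mice 1 to 4 or miR-Ctrl BDL mice 2 and 4. C8g, a chain of the terminal complex, fell with a log2 FC of -1.53 ± 0.14, whereas C8a and C9 had log2 FC of -0.28 ± 0.23 and -0.44 ± 0.38 and were not called. Of 18 apolipoprotein and lipoprotein enzyme genes, 8 fell and 2 rose. Apoa1, the main protein of HDL, fell from 7608 ± 626 to 4468 ± 675 (log2 FC -0.77 ± 0.20, edgeR adjusted p = 0.0144). Apoa4 was at 484, 198, 10582 and 191 in the ligated mice, with mouse 3 far above the rest, and was not called (log2 FC 3.27, edgeR adjusted p = 0.0656), though it was without miR-Ctrl BDL mouse 2 (adjusted p = 0.0491) or mouse 4 (adjusted p = 0.0465). Without miR-Ctrl BDL mouse 3 its log2 FC was -0.04 (edgeR adjusted p = 0.968). For Apoa4, 69.8% of the exon bases overlap a gene on the other strand. Lpl, the lipoprotein lipase, which adult hepatocytes hardly make, rose with a log2 FC of 2.52 ± 0.56, with 126, 130.3, 20.7 and 148 against 8.01 to 36.8, and mouse 3 was within the range of the controls.

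Acute-phase genes, which hepatocytes raise in response to inflammatory cytokines, were high in ligated livers and in 1 control. Over all 9 mice, 7 of 25 rose and 1 fell, with a median log2 FC of 1.32. The median of the list relative to no BDL mice 1 to 4 was 0.03, -0.05, -0.04, 0.01 and 2.25 in no BDL and 1.63, 2.05, 3.16 and 2.18 in miR-Ctrl BDL, so no BDL mouse 5 lay within the range of the ligated mice. Without no BDL mouse 5, 19 genes were called higher, with a median of 2.35. Leaving out any other single mouse gave 3 to 7, and the median without miR-Ctrl BDL mouse 3 was 0.79. Lcn2 (lipocalin 2, Entrez 16819, GRCm38 chr2:32384637-32387739), which binds bacterial siderophores, was at 4.01, 2.37, 4.64, 7.04 and 559.6 in no BDL and 1344, 2550.3, 5421 and 2127 in miR-Ctrl BDL. It did not pass over all mice (log2 FC 4.63 ± 1.67, edgeR adjusted p = 0.0543), and without no BDL mouse 5 the log2 FC was 9.30 (adjusted p = 6.29e-05). Orm2, an α1-acid glycoprotein, was at 78.8, 89.6, 83.6, 87.3 and 948 and 970.1, 1494, 2449 and 1721 (log2 FC 2.69 ± 0.83, edgeR adjusted p = 0.0292), and its log2 FC without no BDL mouse 5 was 4.29. The adjusted p of Orm2 was 0.0523 to 0.0638 without any 1 of no BDL mice 1 to 4 or miR-Ctrl BDL mice 2 and 4, and 22.7% of its windows are shared with other genes. Il1rn, the interleukin-1 receptor antagonist, rose with a log2 FC of 5.00 ± 1.16, or 2.82 without miR-Ctrl BDL mouse 3, which had 379 against 17.8 to 32 in the other ligated mice, and 6.18 without no BDL mouse 5. Serpina3m, a serine protease inhibitor, was the member that fell (log2 FC -1.38).

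**Figure D4:**
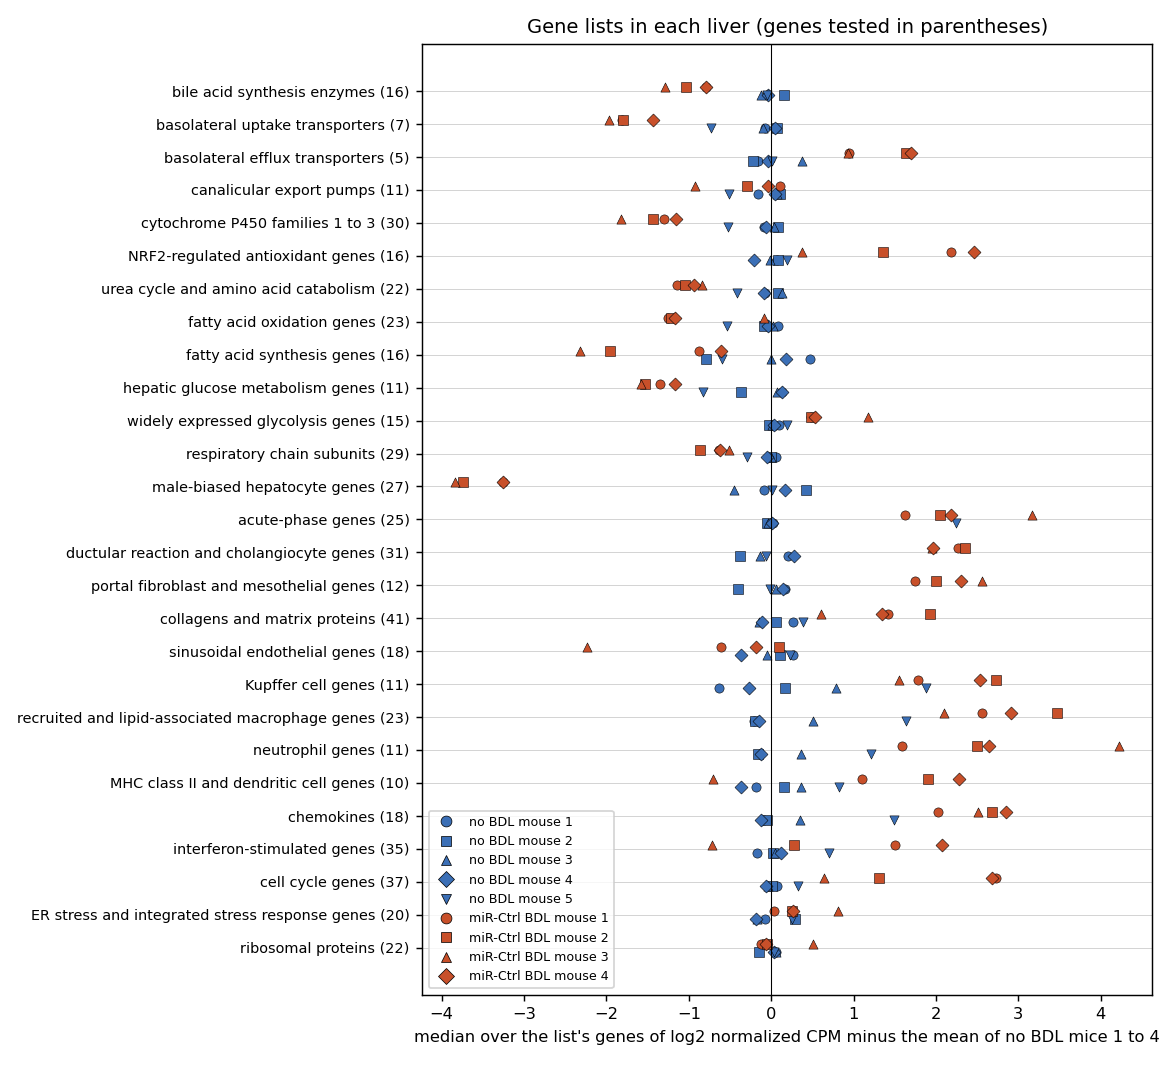
Median over the genes of each list drawn of a mouse's log2 CPM relative to the mean of no BDL mice 1 to 4, 1 point per mouse. No BDL mouse 5 was at 2.25 for acute-phase genes, among the ligated mice (1.63 to 3.16), and miR-Ctrl BDL mouse 3 was at -2.24 for sinusoidal endothelial genes and -0.72 for interferon-stimulated genes, below the controls.

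The labelled tissue was plain in every mouse, as Alb, albumin, was at 63003 to 73093 normalized CPM in no BDL and 28151 to 53349.5 in miR-Ctrl BDL (log2 FC -0.80 ± 0.34, edgeR adjusted p = 0.0931). Of 11 exocrine pancreas genes, 6 had 0 counts in all 9 mice, among them Cpa1 and Pnlip. The summed level of the 11 was 4.0 to 7.04 in no BDL and 2.17 to 3.41 in miR-Ctrl BDL. Amy2a5, an amylase gene, had 28 to 77 counts per mouse, and 57.2% of its windows are shared with other genes. Of 12 hepatocyte identity genes, 6 fell and 2 rose, and their summed level was 141664 to 156234 in no BDL and 94169.8 to 131792 in miR-Ctrl BDL. Ttr, transthyretin, which carries thyroid hormone, fell from 4667 to 6356 to 822 to 1418 (log2 FC -2.14 ± 0.22, edgeR adjusted p = 0.000212). The 2 that rose, Trf (transferrin) and Hpx (haemopexin), bind iron and haem in plasma, with log2 FC of 1.23 and 1.62. The call of Hpx was lost without any 1 mouse other than no BDL mouse 5 (adjusted p of 0.0524 to 0.0904).

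Most bile duct genes tested rose. Of 31 genes of cholangiocytes and the ductular reaction, 27 rose and 0 fell (median log2 FC 2.38), and the groups did not overlap for 24, beside 29.6% of all genes tested. Their summed level was 509.6 to 642 in no BDL and 2651 to 3947 in miR-Ctrl BDL, and the median of the list was between 1.96 and 2.35 in the 4 ligated mice, so the mouse that stood apart did not differ from the rest here. Krt7, a keratin of bile ducts (GRCm38 chr15:101412403-101427806), was at 0.984, 0.553, 0.702, 0.948 and 0.655 in no BDL and 5.49, 8.87, 10.1 and 5.1 in miR-Ctrl BDL (log2 FC 3.24 ± 0.28, edgeR adjusted p = 0.000102). Sox9, a transcription factor of bile ducts and of hepatocytes that take on ductal features, was at 5.83, 7.27, 4.78, 5.96 and 7.67 and 21.2, 30.5, 39 and 14.1 (log2 FC 2.05 ± 0.27). Every ligated mouse was above every control for both genes. Mmp7, matrilysin, a protease of injured bile ducts, rose most in the list, from 0 to 0.393 to 3.25, 2.87, 27.6 and 6.55 (log2 FC 5.35 ± 0.87). It was 4.10 without miR-Ctrl BDL mouse 3, and 11.5% of the exon bases of Mmp7 overlap a gene on the other strand.

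Most matrix genes tested rose. Of 41 collagens and matrix proteins, 27 rose and 2 fell (median log2 FC 1.23), and of 15 matrix proteases and inhibitors, 13 rose and 0 fell (median 1.70). The fibrillar collagen gene Col1a1 (GRCm38 chr11:94936224-94953042) was at 8.93, 2.69, 4.35, 9.21 and 8.78 in no BDL and 81.2, 128, 53.5 and 65.5 in miR-Ctrl BDL (log2 FC 3.59 ± 0.39, edgeR adjusted p = 0.000236). Col3a1 was at 32.2, 13.8, 13.3, 24 and 27.5 and 150.2, 243, 50.2 and 107 (log2 FC 2.63 ± 0.43). For both, mouse 2 was the highest ligated mouse and mouse 3 the lowest, and the groups did not overlap. Lox, the lysyl oxidase that cross-links collagen, had at most 3 counts in any control and was at 2.14, 4.38, 7.38 and 1.7 in the ligated mice, at least 18.4-fold higher. Its counts also differ between the deposited tables. Timp1, the inhibitor of matrix metalloproteases, was at 0.0703, 0, 0.140, 0.271 and 0.262 in no BDL and 5.09, 14.7, 41.4 and 4.65 in miR-Ctrl BDL (log2 FC 6.66 ± 0.89, or 5.65 without miR-Ctrl BDL mouse 3). Mmp12, the metalloprotease of macrophages, rose to 2.05 to 12.7 from 0 to 0.655 (log2 FC 4.36 ± 0.68). The 2 matrix genes that fell were Col5a3 (log2 FC -1.44) and Col18a1 (log2 FC -0.45), the latter a basement membrane collagen that hepatocytes also make. Col18a1 was not called without any 1 of no BDL mice 1 to 4 or miR-Ctrl BDL mice 1, 2 and 4 (adjusted p of 0.0526 to 0.091).

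The cell types that could make this matrix differed in their markers. Of 13 genes of quiescent stellate cells, the vitamin A storing cells of the sinusoid, 1 rose and 5 fell (median log2 FC -0.54). Without any 1 of no BDL mice 1, 2 and 3 or miR-Ctrl BDL mouse 1, 3 fell, and without no BDL mouse 2 or miR-Ctrl BDL mouse 3, 2 rose. Reln, reelin, and Lrat, which esterifies retinol, were not called, with log2 FC of -0.38 ± 0.31 and 0.00 ± 0.50. Hhip, an inhibitor of hedgehog signalling, fell (log2 FC -1.82 ± 0.57, edgeR adjusted p = 0.0312), with adjusted p of 0.0516 to 0.0834 without any 1 of no BDL mice 1 to 3 or miR-Ctrl BDL mice 1 and 2. Of 13 myofibroblast and contractile genes, 7 rose and 0 fell (median 0.92). Without no BDL mouse 4 or miR-Ctrl BDL mouse 1 or 2, 4 rose, and 2 fell without no BDL mouse 5 and 1 without miR-Ctrl BDL mouse 2. S100a6, a calcium-binding protein of activated fibroblasts and ducts, was at 0.562 to 1.9 in no BDL and 4.98 to 18.5 in miR-Ctrl BDL (log2 FC 3.30 ± 0.43). Tagln and Des, both smooth muscle and stellate cell genes, were not called, with log2 FC of 0.24 ± 0.37 and 0.58 ± 0.28. Des was called without miR-Ctrl BDL mouse 3 (log2 FC 0.76), and 67.9% of the exon bases of Tagln overlap a gene on the other strand. Of 12 portal fibroblast and mesothelial genes, 10 rose and 0 fell (median 2.17), with a summed level of 27.4 to 92.5 in no BDL and 168 to 185 in miR-Ctrl BDL. Msln, mesothelin, a surface protein of the organ's lining, had at most 1 count in any control and was at 5.7, 7.46, 27.3 and 13.8 in the ligated mice, at least 64-fold higher, or at least 42.4-fold without miR-Ctrl BDL mouse 3. Upk3b, uroplakin 3b, of the same cells, was at least 27.6-fold higher. Thy1, a portal fibroblast marker, was not called (log2 FC 1.53 ± 0.55, edgeR adjusted p = 0.0547) and was called higher without miR-Ctrl BDL mouse 3 (log2 FC 1.85), the ligated mouse with the least of it.

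Endothelial genes were called less uniformly. Of 18 sinusoidal endothelial genes, 2 fell and 0 rose (median log2 FC -0.60). The list median per mouse was 0.26, 0.10, -0.05, -0.37 and 0.23 in no BDL and -0.61, 0.10, -2.24 and -0.18 in miR-Ctrl BDL, where mouse 3 was far below all others, and its summed level was 83.1 in that mouse against 212 to 338 in no BDL. Without that mouse 5 fell and the median was -0.29, and 1 to 5 fell when any single mouse was left out. The scavenger receptor Stab2 and the lectin Clec4g, which define these cells, had log2 FC of -0.55 ± 0.31 and -0.63 ± 0.50 and were not called. Ehd3, which is involved in membrane recycling, fell (log2 FC -1.29 ± 0.39, edgeR adjusted p = 0.026), with adjusted p of 0.0541, 0.0586 and 0.0573 without no BDL mouse 1, no BDL mouse 2 or miR-Ctrl BDL mouse 1. Of 13 genes of vascular and capillarized endothelium, 4 rose and 1 fell. Icam1, an adhesion molecule for leukocytes on inflamed endothelium and other cells, was at 4.64, 4.43, 10.5, 11.6 and 29.6 in no BDL and 42.7, 63.1, 145 and 50.3 in miR-Ctrl BDL (log2 FC 2.62 ± 0.58, edgeR adjusted p = 0.00693). No BDL mouse 5 was the highest control, and the log2 FC without it was 3.27. For Icam1, 11.7% of the exon bases overlap a gene on the other strand. Vwf and Plvap, of larger vessels, were not called (log2 FC 0.06 ± 0.31 and 0.30 ± 0.28).

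Genes of the list for recruited and lipid-associated macrophages rose almost without exception. The list also holds general macrophage genes such as Csf1r, Adgre1 and Cd68, so it does not separate recruited from resident cells. Of 23 genes, 22 rose and 0 fell (median log2 FC 2.26), and 1 fell without no BDL mouse 2 or miR-Ctrl BDL mouse 4. They had a summed level of 118 to 619.9 in no BDL, highest in mouse 5, and 696 to 1530.3 in miR-Ctrl BDL. Ccr2, the receptor that brings monocytes into tissue, was at 1.9, 0.712, 1.05, 0.812 and 2.82 in no BDL and 12.6, 25.5, 2.05 and 11.6 in miR-Ctrl BDL (log2 FC 3.14 ± 0.64, edgeR adjusted p = 0.0045). Mouse 3 was the lowest ligated mouse and lay below no BDL mouse 5. Trem2, a lipid receptor of macrophages, was at 0.352, 0.474, 0.140, 0.271 and 1.31 and 6.71, 11.4, 6.29 and 6.3 (log2 FC 3.88 ± 0.47, or 4.62 without no BDL mouse 5). Cd14, a coreceptor for bacterial lipopolysaccharide, rose to 66.4, 148, 842 and 67.6 from 1.29 to 10.2 (log2 FC 6.33 ± 1.03), which was 4.73 without miR-Ctrl BDL mouse 3 and 7.30 without no BDL mouse 5. Among the genes of Kupffer cells, the resident macrophages, 7 of 11 rose and 0 fell (median 1.60), 11 rose without no BDL mouse 5, 9 without miR-Ctrl BDL mouse 3 and 2 to 7 without any other single mouse. Their summed level was 654 in no BDL mouse 5, 110.1 to 654 over all controls and 636 to 1482 in miR-Ctrl BDL. The lectin Clec4f, specific to Kupffer cells, was at 31, 57.5, 74.3, 37.2 and 141 and 114, 191, 38.4 and 171 (log2 FC 0.91 ± 0.52, edgeR adjusted p = 0.195), and was called without no BDL mouse 5 (log2 FC 1.36, adjusted p = 0.0463) or miR-Ctrl BDL mouse 3 (log2 FC 1.21, adjusted p = 0.0489). Timd4, which binds dying cells, was called without no BDL mouse 5 (log2 FC 2.16) but not over all mice (log2 FC 1.48). Marco, a scavenger receptor, rose from 2.04 to 40.3 to 106 to 345 (log2 FC 3.89 ± 0.86, or 4.93 without no BDL mouse 5).

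Of 11 neutrophil genes tested, 9 rose and 0 fell (median log2 FC 2.72), with a summed level of 16.8 to 36.4 in no BDL and 33.2 to 315 in miR-Ctrl BDL, highest in mouse 3. S100a8, a subunit of calprotectin, was at 0.141, 0.158, 0.211, 0.271 and 2.42 in no BDL and 2.49, 6.05, 62.6 and 15.7 in miR-Ctrl BDL (log2 FC 5.01 ± 1.09, edgeR adjusted p = 0.00635). Mouse 1 of the ligated group was barely above no BDL mouse 5, and the log2 FC was 3.58 without miR-Ctrl BDL mouse 3 and 6.72 without no BDL mouse 5. Trem1, which amplifies myeloid responses, had at most 1 count in any control and was at 0.559, 1.21, 8.89 and 0.749 in the ligated mice, at least 13.5-fold higher, or at least 3.97-fold without mouse 3. Cxcr2, the chemokine receptor of mature neutrophils, had a log2 FC of 0.01 ± 0.23 and was not called, and Mpo, a granule enzyme of neutrophils and their precursors, rose (log2 FC 4.37). The granule genes Elane, Ngp, Camp and Ltf were under the filter on low counts.

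Lymphocyte genes were few at this depth. Of 10 T and NK cell genes that passed the filter, 1 rose (Gzmb, granzyme B, log2 FC 2.63) and 1 fell (Cd4, 1.55 to 4.19 in no BDL and 0.203 to 0.600 in miR-Ctrl BDL, log2 FC -2.79 ± 0.44, edgeR adjusted p = 0.00139). The count called higher was 0 without any 1 of no BDL mice 1 to 4 or miR-Ctrl BDL mice 1 and 4, and 5 without both mice that stood apart. The T cell receptor chain Cd3e was under the filter, with 2 to 9 counts per control and 2 to 23 per ligated mouse. Cd8a was at 0.0703, 0.0791, 0.211, 0.0677 and 0.983 and 0.610, 0.554, 0.0684 and 1.5 (log2 FC 1.25 ± 0.85, edgeR adjusted p = 0.284), with no BDL mouse 5 among the ligated mice. Of 3 B cell genes tested, the edgeR test called 0, 1 were under an unadjusted p of 0.05, and DESeq2 called 0. Jchain, of plasma cells, had a log2 FC of -0.75 ± 0.48 (edgeR adjusted p = 0.249, or 0.0421 without no BDL mouse 2). Of 10 genes of MHC class II and dendritic cells, 2 rose and 0 fell (median 1.24), or 7 without miR-Ctrl BDL mouse 3, 4 without no BDL mouse 5 and 1 without any other single mouse. Cd74, the class II invariant chain, was at 41.5, 52.9, 67.1, 36 and 114 in no BDL and 124, 209, 46.6 and 305 in miR-Ctrl BDL. Mouse 3 was within the range of the controls, and Cd74 (log2 FC 1.46 ± 0.50, edgeR adjusted p = 0.0439) lost its call without any 1 of 7 mice, with adjusted p of 0.0557 to 0.144. H2-Ab1, a class II chain, was not called (log2 FC 1.25 ± 0.50, edgeR adjusted p = 0.0769) and was called higher without miR-Ctrl BDL mouse 3 (log2 FC 1.58) or no BDL mouse 5 (log2 FC 1.53). H2-DMb1, which helps load peptides, rose (log2 FC 1.80 ± 0.43), and 27.2% of its windows are shared with other genes.

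Most genes of signalling proteins that attract and activate such cells rose. Of 18 chemokines, 13 rose and 1 fell (median log2 FC 2.81), and of 15 cytokines and growth factors, 13 rose and 0 fell (median 1.68), or 1 without miR-Ctrl BDL mouse 4. Cxcl1 and Cxcl5 both draw neutrophils. Cxcl1 was at 8.65, 6.09, 4.92, 3.52 and 10.3 in no BDL and 19.7, 56, 57.5 and 49.9 in miR-Ctrl BDL (log2 FC 2.77 ± 0.37, edgeR adjusted p = 0.000617), and Cxcl5 at 0 to 0.590 and 4.32 to 6.77 (log2 FC 4.62 ± 0.52, or 5.54 without no BDL mouse 5). Cxcl2, of the same kind, was at 0.865, 5.69, 69.9 and 1.85 in the ligated mice against 0 to 0.271, with mouse 3 far above the rest (log2 FC 6.90 ± 1.52, or 4.10 without it). The chemokine that fell was Cxcl12, which stromal and endothelial cells make constitutively (log2 FC -0.82). Il1b, interleukin-1β, was at 3.8, 1.11, 5.27, 0.948 and 5.9 and 4.17, 9.47, 53.2 and 8.74 (log2 FC 2.45 ± 0.79, edgeR adjusted p = 0.0345). Its ranges overlapped, and it was not called without miR-Ctrl BDL mouse 3 (log2 FC 1.11, adjusted p = 0.126) or without any 1 of no BDL mice 1 to 4 (adjusted p of 0.0523 to 0.0736). Its counts differ between the deposited tables. Tgfb2, an isoform of TGF-β, rose from 0.281 to 1.12 to 2.3 to 6.0 (log2 FC 2.66 ± 0.44). Lif, a cytokine of the interleukin-6 family, was at least 13-fold higher, or at least 8.29-fold without miR-Ctrl BDL mouse 2.

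Interferon-stimulated genes divided the ligated mice. Over all mice, 8 of 35 rose and 0 fell (median log2 FC 0.90), beside 19.1% and 16.6% of all genes tested. The median of the list relative to no BDL mice 1 to 4 was -0.18, 0.02, 0.04, 0.12 and 0.70 in no BDL and 1.5, 0.28, -0.72 and 2.08 in miR-Ctrl BDL, high in mice 1 and 4 and below all controls in mouse 3. Without mouse 3, 24 rose, and 2 to 3 rose without any 1 of no BDL mice 1 to 4 or miR-Ctrl BDL mice 1 and 4. Without mouse 4 of the ligated group 1 fell, and the median was 0.51. Ifit1, an antiviral RNA-binding protein, was at 5.06 to 8.84 in no BDL and 28.2, 5.69, 1.03 and 26.4 in miR-Ctrl BDL, so that mice 1 and 4 were above and mice 2 and 3 within or below the range of the controls. Neither Ifit1 (log2 FC 1.10 ± 0.68, edgeR adjusted p = 0.237) nor the ubiquitin-like protein gene Isg15 (log2 FC 1.27 ± 0.59, adjusted p = 0.121) passed with all mice, and both passed without miR-Ctrl BDL mouse 3 (log2 FC 1.47 and 1.61). Gbp2, a guanylate-binding protein, rose (log2 FC 2.57 ± 0.68), to 14.1, 10.6, 9.64 and 62.4, and its log2 FC was 1.49 without miR-Ctrl BDL mouse 4.

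Cell division genes rose in all ligated mice, to different degrees. Of 37 tested, 31 rose and 1 fell (median log2 FC 2.13), with a summed level of 197 to 233 in no BDL and 277 to 782 in miR-Ctrl BDL. The list median per mouse was 0.07, 0.00, -0.04, -0.06 and 0.32 in no BDL and 2.73, 1.30, 0.64 and 2.68 in miR-Ctrl BDL, highest in mice 1 and 4 and lowest in mouse 3. Mki67, the proliferation antigen Ki-67, was at 0.562, 1.03, 2.18, 0.745 and 1.64 in no BDL and 25.6, 9.98, 4.99 and 22.5 in miR-Ctrl BDL (log2 FC 3.67 ± 0.53, edgeR adjusted p = 0.000909). Ccnb1, cyclin B1 of mitosis, was at 15.6, 3.07, 1.09 and 8.04 in the ligated mice against 0 to 0.328 (log2 FC 5.09 ± 0.84, or 4.32 without miR-Ctrl BDL mouse 1), and 42.1% of its windows are shared with other genes. Plk1, a mitotic kinase, rose with a log2 FC of 4.10 ± 0.59, or 3.50 without miR-Ctrl BDL mouse 1. The groups did not overlap for these 3 genes. Tyms, thymidylate synthase, was the member that fell (log2 FC -0.48).

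Promoters of cell cycle genes often hold CCAAT boxes and a TTTGAA element, the latter the core of the cell cycle genes homology region at which DREAM and MuvB complexes bind. Stretches of RefSeq promoters (GRCm38.p6, 250 bases before to 50 after the start) of 5 cell cycle genes called higher are shown to let these letters be seen in place, read on the strand of the gene with the 6 bases that match TTTGAA or its reverse complement in capitals.
Mki67, chr7:135716478-135716507, minus strand: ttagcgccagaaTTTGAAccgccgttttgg
Cdk1, chr10:69352966-69352995, minus strand: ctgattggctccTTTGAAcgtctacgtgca
Mcm2, chr6:88898833-88898862, minus strand: agggctcagcctTTTGAAagctgtgggcgg
Prc1, chr7:80294434-80294463, plus strand: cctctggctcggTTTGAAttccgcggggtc
Kif11, chr19:37376351-37376380, plus strand: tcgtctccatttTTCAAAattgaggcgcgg
The stretch of Kif11, the mitotic kinesin Eg5, carries the reverse complement, and that of Cdk1, the mitotic kinase, also holds a CCAAT box in reverse (attgg). Searched on both strands, CCAAT was found in 92.3% and TTTGAA in 61.5% of 26 promoters of the 24 cell cycle genes, out of 31 called higher, that matched the RefSeq table by symbol, against 37.9% and 12.6% of 13205 promoters of the same length of the 10400 genes, out of 13072 tested, that matched. Both were found in 61.5% and 5.10%. The 5 promoters shown were taken from those that hold both. Those of Mki67 and Cdk1 hold a further TTTGAA, 92 and 9 bases before the start, beside the matches shown at 110 and 65. A match of one motif can share at most 1 letter with a match of the other, and a match describes the sequence only.

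Stress programs differed from each other. Of 19 p53 target and senescence genes, 8 rose and 0 fell (median log2 FC 0.68). Cdkn1a, which encodes the cell cycle inhibitor p21, was at 9.14, 3.64, 0.843, 1.42 and 40.3 in no BDL and 49.5, 56.5, 128 and 25.8 in miR-Ctrl BDL. No BDL mouse 5 lay among the ligated mice, and Cdkn1a was not called (log2 FC 2.54 ± 0.96, edgeR adjusted p = 0.0628) but was called without that mouse (log2 FC 4.11, adjusted p = 0.00297). Phlda3, a p53 target that restrains AKT, rose from 0.553 to 1.11 to 2.94 to 10.1 (log2 FC 3.07 ± 0.39). Of 20 genes of ER stress and the integrated stress response, 0 rose and 1 fell. Without no BDL mouse 1, 1 rose, without miR-Ctrl BDL mouse 1, 2 rose, and without miR-Ctrl BDL mouse 3, 2 fell. Neither the chaperone Hspa5 (log2 FC 0.22 ± 0.31) nor the transcription factor Ddit3 (log2 FC 0.22 ± 0.22) was called. The one that fell over all mice was Herpud1, of ER-associated degradation (log2 FC -1.17 ± 0.25). Among 14 immediate early genes, 4 rose and 1 fell, and 7 rose without no BDL mouse 1. That control had 431 normalized CPM of Egr1 and 179.8 of Jun, against 56.9, 64.4, 88.2 and 51.8 and 62.4, 75.3, 47 and 48.2 in the ligated mice, and neither gene was called. Ier3, an early gene of stress and NF-κB, rose from 0.316 to 2.1 to 6.46, 14.5, 103 and 6.55 (log2 FC 5.25 ± 1.02, or 3.41 without miR-Ctrl BDL mouse 3 and 5.95 without no BDL mouse 5).

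Of 16 S100 and annexin genes, calcium-binding proteins, 10 rose and 2 fell (median log2 FC 0.67), or 1 fell without any 1 of no BDL mice 1 to 4 or miR-Ctrl BDL mice 1 and 4. Anxa2 was at 17.2, 8.14, 6.46, 9.55 and 10.02 in no BDL and 141, 156, 148 and 63.7 in miR-Ctrl BDL (log2 FC 3.63 ± 0.34, edgeR adjusted p = 0.000124), and S100a11 at 3.32 to 7.1 and 46.7 to 131 (log2 FC 3.80 ± 0.33). Both were clearly separated between the groups, and 41.1% of the windows of S100a11 are shared with other genes. Genes of fetal liver were low in every mouse, and 4 of 5 tested rose. Afp, α-fetoprotein, was at 0.914 to 1.9 in no BDL and 2.55 to 3.02 in miR-Ctrl BDL (log2 FC 1.01 ± 0.22, edgeR adjusted p = 0.00591). H19, an imprinted long RNA, rose with a log2 FC of 3.42 ± 0.74, or 4.95 without no BDL mouse 4, and Gpc3, a fetal liver proteoglycan, by 4.94 ± 0.66, or 4.29 without miR-Ctrl BDL mouse 3 and 5.76 without no BDL mouse 1.

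Nuclear genes of the respiratory chain fell by small amounts. Of 29 tested, 26 fell and 0 rose (median log2 FC -0.60), and the groups did not overlap for 25, beside 29.6% of all genes tested. Ndufs1, a subunit of complex I, was at 84.8, 97.6, 91.6, 95.3 and 66.6 in no BDL and 58.4, 41.7, 56 and 57.6 in miR-Ctrl BDL (log2 FC -0.71 ± 0.15, edgeR adjusted p = 0.00498). Sdhb, of complex II, fell most (log2 FC -1.02 ± 0.15). With totals in place of TMM, the list median was 0.20 before the shift of all genes was taken off, so that its direction holds only relative to the median gene. The same limit applies to other lists that fell, such as bile acid synthesis (0.01), apolipoprotein (0.14) and hepatocyte identity genes (0.01). Of 22 ribosomal protein genes, 0 rose and 0 fell by the edgeR test (median log2 FC 0.09, or -0.11 without miR-Ctrl BDL mouse 3). At an unadjusted p of 0.05 the count was 0, and DESeq2 called 0. Rplp0 had a log2 FC of 0.27 ± 0.17 and Rps6 of -0.01 ± 0.16, and in both miR-Ctrl BDL mouse 3 was above all other mice. Both genes share windows with other genes, 41.8% for Rplp0 and 55.1% for Rps6.

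Circadian clock genes were spread widely among the controls. Of 15 tested, 3 fell and 0 rose, and 8 fell without no BDL mouse 5. Arntl (BMAL1), an activator of the clock, was at 5.06, 12, 0.562, 0.542 and 21.3 in no BDL and 11.8, 10.03, 11.2 and 5.15 in miR-Ctrl BDL, and Per2, a repressor of it, at 16.2, 13.9, 35.1, 35.5 and 5.37 and 9.0, 10.4, 12.3 and 13.5. No BDL mice 3 and 4 were low in Arntl and high in Per2, while mouse 5 was the reverse. Per2 was called lower without mouse 5 (log2 FC -1.16) and not with it (log2 FC -0.91). Hlf, an output factor of the clock, fell (log2 FC -1.52 ± 0.27, edgeR adjusted p = 0.00221). The hour of tissue collection is not given in the sources used here, and its part in these values was not tested. Of 4 erythroid genes, Alas2, the erythroid haem synthase, fell from 86.4 to 148 to 6.02 to 28.9 (log2 FC -2.82 ± 0.40, edgeR adjusted p = 0.000814), where 15.5% of its exon bases overlap a gene on the other strand, and the globins were not called.

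**Figure D5:**
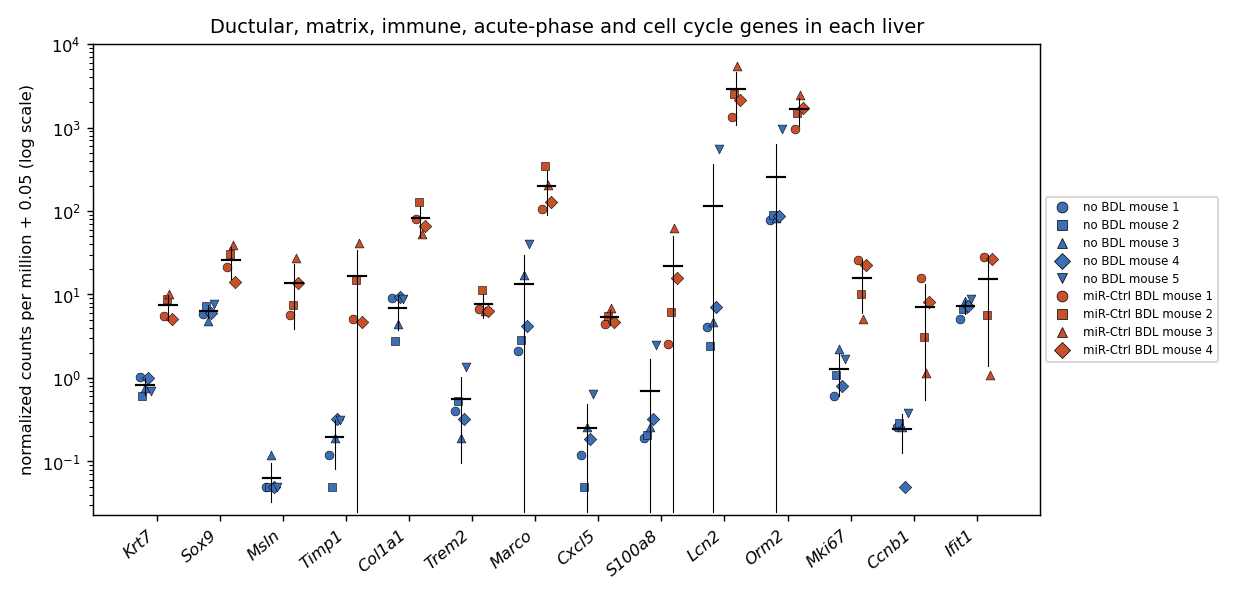
Normalized CPM of genes of bile ducts, matrix, macrophages, inflammation and division in each mouse on a log10 axis, with 0.05 added so that values of 0 can be drawn, 1 point per mouse, a bar at the group mean and a thin line for ± 1 SD. For Krt7, Col1a1, Trem2 and Mki67 all ligated mice lay above all controls, and for Lcn2 no BDL mouse 5 (559.6) lay far above the other controls.

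Among genes past the threshold, without overlap and with a mean of at least 10 normalized CPM in the higher group, the 12 with the largest increase included Sprr1a, Msln, Ly6d, Cxcl2, Cpe, Timp1, Acod1, Gpx2, Slpi, Cd14 and Bmper. Sprr1a, a protein of the cornified envelope of epithelia, had 0 counts in every control and 12.3, 19.8, 6.02 and 1.95 normalized CPM in the ligated mice, at least 47.3-fold higher. Ly6d, a surface protein of the Ly6 family, was at 1.27, 0.237, 0.562, 1.08 and 1.18 in no BDL and 118, 76.9, 252 and 56.2 in miR-Ctrl BDL (log2 FC 7.15 ± 0.57, or 6.55 without miR-Ctrl BDL mouse 3). Slpi, a secreted inhibitor of leukocyte proteases, was at 0.141, 0, 0.492, 0.271 and 2.16 and 40.8, 44.5, 101 and 47 (log2 FC 6.5 ± 0.68, or 7.92 without no BDL mouse 5, the highest control). Gpx2, the glutathione peroxidase of epithelia, was at least 52.1-fold higher, with 16.5, 8.72, 1.5 and 17.4 in the ligated mice. Cpe, a carboxypeptidase that trims peptide hormones, rose from 0 to 0.351 to 6.1 to 21.3 (log2 FC 6.72 ± 0.67, or 7.71 without no BDL mouse 3). Cxcl2, Acod1, which makes itaconate in macrophages, and Bmper, a regulator of BMP signalling, shared a pattern in which miR-Ctrl BDL mouse 3 was highest by far. Acod1 was at 1.58, 3.58, 48.5 and 7.1 in the ligated mice and Bmper at 1.83, 2.97, 63.9 and 4.35. Without that mouse their log2 FC were 4.65 and 3.72, in place of 6.54 and 6.29.

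The 12 with the largest decrease were Hsd3b5, Sult2a8, Serpina4-ps1 and 9 Mup genes (Mup17, Mup11, Mup2, Mup9, Mup8, Mup7, Mup13, Mup14 and Mup16). Serpina4-ps1, by its symbol a serpin pseudogene, was at 331, 122, 103, 239 and 219 in no BDL and 0.356, 1.16, 0.205 and 0.600 in miR-Ctrl BDL (log2 FC -8.39 ± 0.59, edgeR adjusted p = 5.22e-05). As only genes without overlap were taken, the highest ligated mouse was below the lowest control in all 12 by the way they were chosen. For the Mup genes, no BDL mouse 3 was the lowest control and miR-Ctrl BDL mouse 3 the lowest ligated mouse, as for Mup17 with 21879, 23451, 7875, 18878 and 16903 in no BDL and 63.2, 82.6, 11.4 and 109 in miR-Ctrl BDL.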

How the data were processed

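Liver RNA of 9 mice was analysed, 4 miR-Ctrl BDL and 5 no BDL, each assigned by its column label. The authors sequenced TruSeq RNA v2 libraries and, per the labels, used CASAVA 1.8.2, FastQC, Trim Galore, TopHat and mm10. They deposited raw counts of reads per Entrez gene, and the counting program is not given in the sources used here. Their methods say that samples standing apart in clustering or principal components were left out of their own testing. No mouse was left out here except in the alternatives. Depth was 12185333 to 19689037 counts per mouse, which limits genes with few reads.

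Tests on these counts used edgeR 4.0.16 under R 4.3.3 (filterByExpr, TMM, quasi-likelihood test, Benjamini-Hochberg adjustment over 13072 genes, threshold 0.05) and, as alternatives, DESeq2 1.42.0. The script was tested on simulated data. The standard error of a log2 fold change was taken as its size over the root of F. Folds against a group with no mouse over 3 counts were computed against 3 counts per library.

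Members and all 52 gene lists were chosen with earlier results of these data known, and some genes belong to several lists. Named genes are 2 anchors per list, the further member called with the largest change in each list, and the 12 largest changes in each direction among genes called without overlap and with a mean of at least 10 CPM in the higher group. Other genes, named as the only or few called members of a list, were chosen after their values were seen. Coordinates are from RefSeq on GRCm38, the assembly of mm10. Shared windows are 50-base windows of GENCODE M21 transcripts that also occur in another gene. The labels do not say that mouse numbers pair the mice. Deviations of same-numbered mice from their group means correlated at -0.048 to 0.058, a check on too few mice to exclude a pairing. Some genes that the rule names are not reported here.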

Additional observations from a re-analysis of the deposited data

Results flagged for a closer look

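In 300 groups of 4 or 5 values, 54 single mice lay farther from the rest of their group than Dixon's 95% limit, of which chance gives about 1 in 20 groups. MiR-Ctrl BDL mouse 3 accounts for 21 of the 54 and no BDL mouse 5 for 15.

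MiR-Ctrl BDL mouse 3 was the highest of its group, in normalized CPM, for Sult2a8 (3.28), Mat1a (6366), Il1rn (379), Mmp7 (27.6), Cd14 (842), Trem1 (8.89), Cxcl2 (69.9), Il1b (53.2), Ier3 (103), Gpc3 (6.91), Rps6 (412), Rplp0 (595), Slpi (101), Acod1 (48.5), Apoa4 (10582), Bmper (63.9) and Cpt1a (415). It was the lowest for Cyp7a1 (0.41), Lpl (20.7) and C9 (94.6). Its median log2 difference from no BDL mice 1 to 4 over fatty acid oxidation genes was the highest (-0.085). The list of fatty acid oxidation genes includes Cpt1a.

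Among controls, mouse 5 was the highest for Hmox1 (27.4), Pkm (21.8), Lcn2 (559.6), Orm2 (948), Il1rn (11.3), Icam1 (29.6), Trem2 (1.31), Cd14 (10.2), S100a8 (2.42), Cd8a (0.983), Cdkn1a (40.3) and Slpi (2.16), and the lowest for Stard4 (17.6). Its list medians stood apart for acute-phase genes (2.25, the highest control) and fatty acid oxidation genes (-0.54, the lowest).

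No BDL mouse 1 was the highest control for Cyp8b1 (347), Onecut1 (8.15), Ttr (6356), Tagln (13.2), Egr1 (431), Gpc3 (0.281) and Jun (179.8). MiR-Ctrl BDL mouse 2 was the highest of its group for C8g (121), Trem2 (11.4) and Lif (5.74) and the lowest for Ndufs1 (41.7), and mouse 4 was the highest for Gbp2 (62.4) and the lowest for Anxa2 (63.7). No BDL mouse 4 was the highest control for Cyp7a1 (72.0) and H19 (0.609). Values that rest on 1 read were those of Msln and Upk3b in no BDL mouse 3 (0.0702 each) and of Trem1 in no BDL mouse 2 (0.0791).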

How the results depend on the processing

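Of 4666 genes called, 2491 higher and 2175 lower, total counts in place of TMM gave 9635, 9360 and 275, of which 338 were genes called in the opposite direction before. Totals without the 20 genes with the most counts gave 5968, 5233 and 735, and glmTreat against a log2 fold change of 1 gave 748, 560 and 188. An adjusted p of 0.01 gave 2562, 1428 and 1134. Size factors of DESeq2 gave 4615 and its Wald test 5134, while filtering at 1 count gave 4810 and at a mean of 10 counts 4751. Leaving out 1 mouse gave 3775 to 5710 genes, 2036 to 2999 higher and 1731 to 2711 lower, fewest in total without no BDL mouse 4 and most without miR-Ctrl BDL mouse 3. With mouse number as a block over mice 1 to 4, 4053 genes were called (2168 and 1885), and 4868 in the same mice without the block. The labels do not give the numbers as a pairing, and no mouse correlated best with its own number. Under the block, 7 of 164 named genes (Abcc4, Cd74, Hhip, Abcb4, Cxcl12, Pdk4 and Plau) were no longer called and 6 were newly called.

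Mat1a, not called at 0.12 with all mice, ranged from -1.17 to 0.45 on leaving out 1 mouse and was called lower without miR-Ctrl BDL mouse 3 and without that mouse and no BDL mouse 5 together (-1.24). The log2 fold change of Cxcr2 was -0.029 relative to the shift of all genes with total counts (0.76 before that shift is taken off). Counts called lower gave way to more calls higher with total counts for canalicular pumps (1 lower), nuclear receptors and FGF15 receptor genes (2), methionine cycle (2), coagulation (0), complement (2), apolipoproteins (1), female-biased (0), periportal (1), quiescent stellate (1), sinusoidal endothelial (0), ER stress (0), respiratory chain (0), clock (1) and hepatocyte identity genes (4). Without the 20 genes with the most counts the same held for canalicular pumps (2), coagulation (3), complement (3), periportal (2), quiescent stellate (1) and ER stress genes (1). It also held for coagulation under glmTreat (0) and for ER stress without miR-Ctrl BDL mouse 1 (1). Over all named genes and alternatives, 2663 values kept their direction and call, 42 that were not called changed sign and stayed uncalled, 159 lost a call, 94 gained one and 3 reversed. In 17 lists with 0 members called higher by edgeR, 2 of 251 members were higher at an unadjusted p of 0.05 and 2 by DESeq2, and in 17 with 0 lower, 4 of 261 and 1.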

Other observations

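The no BDL mice 1 to 5 and miR-Ctrl BDL mice 1, 2 and 4 also appear in the study's other tables, with other mice. Of 23019 genes shared with each, 666 had counts that differ for the same no BDL mouse and 671 for the same miR-Ctrl BDL mouse, and the rest were identical. Among genes named here with at least 10 counts, the other tables had 1.25 to 1.38 times the counts of Cps1, 1.35 to 1.52 times those of Lox, 0.945 to 0.960 times those of Glul, and 0.667 to 1 times those of Il1b. The other named genes that differed were within 0.923 and 1.02 times. How the tables came to differ is not given in the sources used here.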
